A study of Sus scrofa with 8 samples.

Results

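The genes examined were the porcine platelet-derived growth factor (PDGF) ligands PDGFA, PDGFB, PDGFC and PDGFD and their receptors PDGFRA and PDGFRB. They were chosen by gene symbol, with an earlier reading of the same libraries in view, and so were in effect selected on the difference between IRF-1 overexpressing and control cells that is described here. That difference is therefore given as a description, with no p-value for any of these genes. All 6 genes were found once each among the 24358 genes of the count table, and all 6 were among the 13250 genes that kept enough counts to be fitted.

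The study asked how interferon regulatory factor 1 (IRF-1), a transcription factor of the interferon response, acts on porcine induced pluripotent stem cells (piPSCs), which were made from embryonic fibroblasts of the domestic pig carrying an OCT4-tdTomato reporter, with reprogramming factors that doxycycline switches on. The RNA-seq data comprised 4 libraries, replicates 1 and 3 of IRF-1 overexpressing cells and replicates 6 and 8 of control cells. The overexpressing cells carried PB-CAG-IRF1-Flag, a transposon in which the ubiquitous CAG promoter drives Flag-tagged IRF1, and the control cells carried PB-CAG-Flag. Both groups went through puromycin selection, were kept in doxycycline with human LIF, the MEK inhibitor PD0325901 and the GSK3 inhibitor CHIR99021 according to the methods, and were freed of feeder cells by letting these attach before RNA extraction. The growth label instead names an LCDMV culture system. The genotype label is overexpression of IRF-1 in all 4 libraries, whereas a figure legend of the study divides them into the groups used here. The cells of a group are not stated to be a single clone, and its libraries are not stated to come from separate cultures, so a p-value measures only the spread between these samples.

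PDGF ligands are secreted as dimers that bring a pair of receptor chains together, and the joined receptor tyrosine kinases then pass the signal to RAS-ERK and PI3K-AKT. PDGF-A and PDGF-C act mainly through the alpha receptor, PDGF-B through both receptors and PDGF-D mainly through the beta receptor, while PDGF-C and PDGF-D must first be cut by proteases to become active. In the early embryo the alpha receptor is known as a marker of primitive endoderm, and the beta receptor is known from pericytes, smooth muscle and fibroblasts.

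The libraries held between 15925429 and 24923319 reads counted on genes, and 1 count was worth between 0.0403 and 0.0640 CPM (the count scaled to a common library size, with TMM factors). A level of no more than 3 counts in a library was taken as the floor, which covers counting error only. Replicates differed by more than sampling noise, with a chi-square per degree of freedom of 19.0 in the overexpressing cells and 33.3 in the controls. The groups were first checked on IRF1 itself, for which 8206 reads were counted in overexpressing replicate 1, 5485 in overexpressing replicate 3, 55 in control replicate 6 and 56 in control replicate 8. IRF1 was thus high in both libraries that carried the transgene and low in both controls, and it differed by 6.46 on the log2 scale (standard error 0.210; edgeR's quasi-likelihood test, Benjamini-Hochberg adjusted p = 3.65e-05). The counts do not tell the introduced IRF1 from the endogenous gene.

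All 6 PDGF genes were lower in both IRF-1 overexpressing libraries than in both controls. The same order of libraries held for 4483 of the 13250 genes fitted (33.8%). For other genes, a gene was called where its adjusted p was under 0.05 and its log2 fold change was 1 or more in either direction. An uncalled gene can therefore have an adjusted p under 0.05. By this rule 10.6% of all genes fitted were called lower and 8.61% higher. Since the 6 PDGF genes were selected on this contrast, no call is given for them and nothing is read from their order of libraries. The difference was largest for PDGFRB and smallest for PDGFC. In these bulk libraries, fewer cells of a type and less RNA per cell cannot be told apart.

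Among the ligands, PDGFA (ENSSSCG00000007541), whose product forms the dimer that binds the alpha receptor alone, spans 277224 to 322088 on chromosome 3 (minus strand) of the pig assembly Sscrofa11.1. It had 122 counts in control replicate 6, 191 in control replicate 8, 21 in overexpressing replicate 1 and 15 in overexpressing replicate 3. Both controls were therefore well above both overexpressing libraries, and the replicates differed 1.40-fold in the controls and 1.17-fold in the overexpressing cells. PDGFA stood at 9.36 ± 2.20 CPM (SD, n = 2) in the controls and 0.783 ± 0.0878 CPM (SD, n = 2) in the overexpressing cells, 12.0-fold lower, with a fitted log2 fold change of -3.57 (standard error 0.376).

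PDGFB (ENSSSCG00000033327), the ligand that can engage either receptor, lies on the plus strand of chromosome 5 from 8986462 to 9007462. Its counts were 447 in control replicate 6, 180 in control replicate 8, 26 in overexpressing replicate 1 and 35 in overexpressing replicate 3. The groups did not overlap, but the controls differed 2.78-fold in CPM, a wider gap than that of 99.3% of the genes fitted. PDGFB stood at 19.5 ± 13.0 CPM (SD, n = 2) in the controls and 1.36 ± 0.450 CPM (SD, n = 2) in the overexpressing cells, a 14.3-fold lower level. The log2 fold change of -3.84 (standard error 0.539) became -2.92 without control replicate 6, the higher of the controls.

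PDGFC (ENSSSCG00000024960), a ligand released in a latent form, spans 45578002 to 45808789 on the minus strand of chromosome 8. There were 923 counts in control replicate 6, 899 in control replicate 8, 767 in overexpressing replicate 1 and 780 in overexpressing replicate 3. Raw counts were thus somewhat lower in both overexpressing libraries, and the difference was wider once their larger totals were scaled. PDGFC was at 55.2 ± 5.43 CPM (SD, n = 2) in the controls and 34.2 ± 4.68 CPM (SD, n = 2) in the overexpressing cells, or 1.62-fold lower. Its log2 fold change was -0.69 (standard error 0.169), and PDGFC was the ligand with the smallest relative difference.

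PDGFD (ENSSSCG00000014994), likewise latent when secreted, spans 34388643 to 34621263 on the minus strand of chromosome 9. It was counted 93 times in control replicate 6, 185 times in control replicate 8, 55 times in overexpressing replicate 1 and 74 times in overexpressing replicate 3. Here control replicate 8 was the higher control, opposite to PDGFB, and the lower control was still above both overexpressing libraries after scaling. PDGFD averaged 8.26 ± 3.27 CPM (SD, n = 2) against 2.89 ± 0.950 CPM (SD, n = 2), a 2.86-fold lower level, and the log2 fold change was -1.52 (standard error 0.406). Without overexpressing replicate 1 it was -1.20, and leaving out control replicate 8 gave -1.04.

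Of the receptors, PDGFRA (ENSSSCG00000008841) lies on the plus strand of chromosome 8 from 40977604 to 41018506. It was scarce in all 4 libraries, with 32 counts in control replicate 6, 21 in control replicate 8 and 12 in each overexpressing library. These counts were above the floor, and both controls were above both overexpressing libraries, although each value rests on few reads. PDGFRA was at 1.62 ± 0.599 CPM (SD, n = 2) in the controls and 0.530 ± 0.0664 CPM (SD, n = 2) in the overexpressing cells, 3.07-fold lower. Its log2 fold change was -1.60 (standard error 0.513), and it lay at -1.18 when control replicate 6 was left out and at -1.93 when control replicate 8 was.

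PDGFRB (ENSSSCG00000022741) lies on the minus strand of chromosome 2 from 151155754 to 151192816. It had 1966 counts in control replicate 6, 978 in control replicate 8, 28 in overexpressing replicate 1 and 62 in overexpressing replicate 3. Every control value was far above every overexpressing value, yet the replicates were also far apart within each group, by 2.25-fold in the controls and 2.64-fold in the overexpressing cells. These gaps were wider than those of 98.0% and 98.4% of the genes fitted, respectively. PDGFRB was at 90.9 ± 49.4 CPM (SD, n = 2) in the controls and 2.05 ± 1.31 CPM (SD, n = 2) in the overexpressing cells, a 44.2-fold lower level. The log2 fold change of -5.49 (standard error 0.531) was -4.79 without control replicate 6 and -6.32 without overexpressing replicate 3, so the direction held while the size moved with single libraries.

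No exon base of the 6 genes is shared with another gene of the count table. To compare one gene with another, CPM was divided by the exon length in kilobases (RPKM). The exon lengths were 4986 bases for PDGFA, 2541 for PDGFB, 4258 for PDGFC, 4264 for PDGFD, 3267 for PDGFRA and 5738 for PDGFRB. On this scale PDGFRB and PDGFC were the most abundant of the 6 in the controls, and PDGFC alone stood high in the overexpressing cells.

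In the controls, the RPKM level was 15.8 ± 8.62 (SD, n = 2) for PDGFRB, 13.0 ± 1.27 for PDGFC, 7.65 ± 5.10 for PDGFB, 1.94 ± 0.767 for PDGFD, 1.88 ± 0.441 for PDGFA and 0.497 ± 0.183 for PDGFRA. The means of PDGFRB and PDGFC differed by less than the larger SD of the pair, and so did those of PDGFD and PDGFA. In the overexpressing cells the order of RPKM levels was PDGFC with 8.03 ± 1.10 (SD, n = 2), PDGFD with 0.677 ± 0.223, PDGFB with 0.537 ± 0.177, PDGFRB with 0.358 ± 0.228, PDGFRA with 0.162 ± 0.0203 and PDGFA with 0.157 ± 0.0176. Below PDGFC, the means of neighbours in this order differed by less than the larger SD of each pair. The PDGFRB level exceeded that of 72.4% of the genes fitted in the controls and of 8.86% in the overexpressing cells, while PDGFB exceeded 52.6% and 11.9% of them and PDGFA 24.6% and 3.73%. For PDGFC these shares were 67.4% and 54.5%, for PDGFD 25.0% and 13.9%, and for PDGFRA 11.2% and 3.93%.

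**Figure D1:**
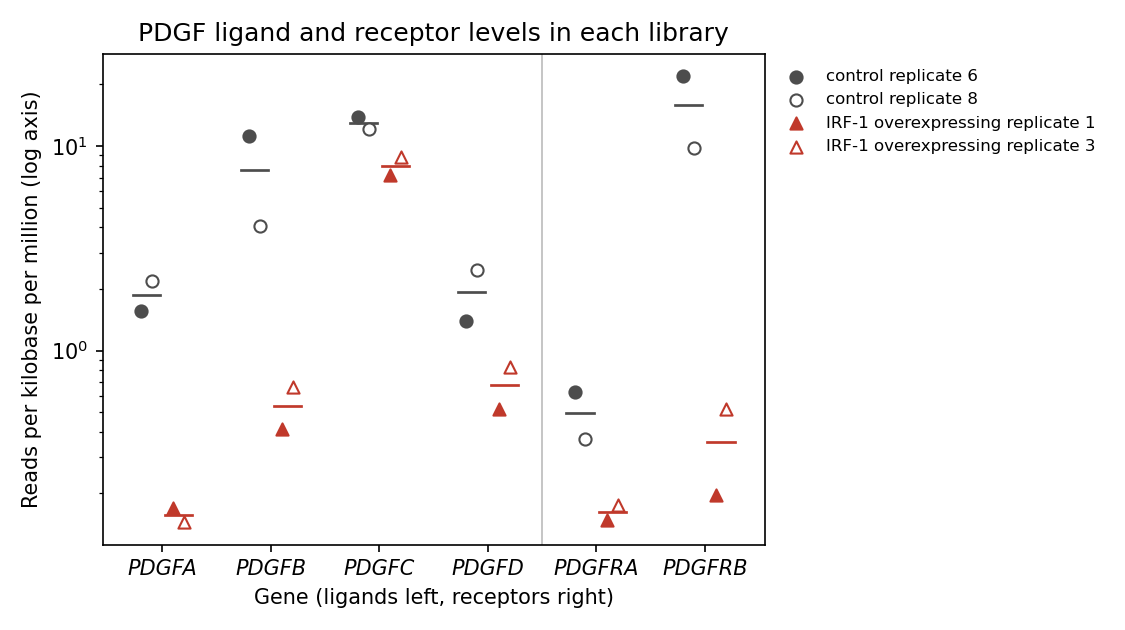
Levels of the 4 PDGF ligand genes (left of the line) and the 2 receptor genes (right) in each library, in RPKM on a log axis. Circles are control libraries, triangles are IRF-1 overexpressing libraries and short bars are group means (n = 2). Every triangle lies below both circles of its gene, and the distance is widest for PDGFRB and narrowest for PDGFC.

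The ligands were then set beside the receptors. Summed over the 4 ligands, the RPKM level was 28.1 in control replicate 6, 20.8 in control replicate 8, 8.35 in overexpressing replicate 1 and 10.4 in overexpressing replicate 3. For the sum of both receptors, it was 22.6, 10.1, 0.344 and 0.696 in the same order of libraries. The ligand sum was the larger of the pair in every library, and both sums were lower in the overexpressing libraries, the receptor sum by far more. The ratio of ligand sum to receptor sum was 1.25 and 2.06 in control replicates 6 and 8, against 24.3 and 15.0 in overexpressing replicates 1 and 3.

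The make-up of each sum differed as well. PDGFC supplied 49.4% and 58.1% of the ligand RPKM in control replicates 6 and 8, and 86.8% and 84.3% in overexpressing replicates 1 and 3. PDGFB supplied 40.1% and 19.5% in the controls against 4.93% and 6.34%. PDGFA supplied 5.57% and 10.5% in the controls against 2.03% and 1.38%, and PDGFD 4.97% and 11.9% against 6.22% and 7.99%. The ligand RNA of the overexpressing cells was therefore mostly PDGFC. In control replicate 6 PDGFC and PDGFB made up most of it, while in control replicate 8 PDGFC led and the other ligands each held a smaller share. On the receptor side, PDGFRB made up 97.2% and 96.4% of the receptor RPKM in the controls and 57.1% and 74.6% in the overexpressing libraries. The share of PDGFRB was thus lower in both overexpressing libraries, where the remainder came from a PDGFRA level that was itself lower than in the controls.

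Pair by pair, the ratio of ligand RPKM to receptor RPKM moved in different directions. PDGFC over PDGFRA was 22.1 and 32.8 in control replicates 6 and 8, and 49.0 and 49.9 in overexpressing replicates 1 and 3. PDGFA over PDGFRA was 2.50 and 5.96 in the controls and 1.15 and 0.819 in the overexpressing libraries. PDGFB over PDGFRA averaged 14.5 ± 4.91 (SD, n = 2) in the controls, with 2.79 and 3.75 in the overexpressing libraries. So for the alpha receptor the ratio was higher in the overexpressing cells with PDGFC and lower with PDGFA and PDGFB. PDGFB over PDGFRB was 0.513 and 0.416 in the controls and 2.10 and 1.27 in the overexpressing libraries. PDGFD over PDGFRB was 0.0637 and 0.255 in the controls and 2.64 and 1.61 in the overexpressing libraries. For the beta receptor both ligand ratios were higher in the overexpressing cells, in which PDGFB and PDGFD each exceeded PDGFRB in RPKM. RNA ratios do not measure the amount of protein or its activity, which were not analysed here.

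The patterns most like each PDGF gene over the 4 libraries were found among genes with a symbol and a mean CPM within 4 times its own, by the root mean square difference of centred log2(CPM + 0.5) values. For PDGFA these were LMX1A (0.0994), ACVRL1 (0.137) and SUSD2 (0.174), and for PDGFB they were TENT5B (0.0880), B3GNT7 (0.126) and INSC (0.171). For PDGFRB the nearest were CYP4B1 (0.189), ITGA5 (0.410) and SH3RF2 (0.427), so the nearest match of PDGFRB was the least close of the 6. The measure is not scaled to the size of a gene's difference between groups, which was largest for PDGFRB. PDGFC was closest to NEIL2 (0.0267), INSIG1 (0.0304) and GPAA1 (0.0319), PDGFD to ATOH8 (0.0555), TRO (0.0797) and LRRC4 (0.107), and PDGFRA to MYL5 (0.0303), PLA2G12B (0.0321) and SLC12A5 (0.0444). No gene was among the nearest 3 of more than 1 PDGF gene. Some matches had few counts in overexpressing replicates 1 and 3, where the 0.5 added to CPM narrows differences. INSC had 1 and 4 counts there, B3GNT7 3 and 5, and PLA2G12B, which was not tested, 0 and 1. The log2 fold changes of INSC and B3GNT7 were -6.02 and -5.42, beside -3.84 for PDGFB.

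The receptors lie beside relatives in the genome. PDGFRA is followed on chromosome 8 by KIT, the stem cell factor receptor, 383815 bases away, and by KDR, a receptor for vascular endothelial growth factor, 790608 bases away. KIT had 27 counts in control replicate 6, 48 in control replicate 8, 315 in overexpressing replicate 1 and 184 in overexpressing replicate 3. It rose in the overexpressing cells, opposite to PDGFRA, and its log2 fold change of 2.26 had a standard error of 0.361 (adjusted p = 0.00352 in edgeR). KDR was scarce, with 13 and 22 counts in the controls and 8 and 0 in the overexpressing libraries, and was not called (log2 fold change -2.57, adjusted p = 0.0713 in edgeR). Next to PDGFRB, 26346 bases away on chromosome 2, lies CSF1R, the receptor of colony-stimulating factor 1. For CSF1R, 28 and 24 reads were counted in the controls and 23 and 20 in the overexpressing libraries, and it was not called (log2 fold change -0.74, adjusted p = 0.255 in edgeR), and 2813 of its exon bases are shared with HMGXB3 on the opposite strand. Of these neighbouring receptor genes, 1 was called higher and 0 were called lower.

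Other neighbours were looked up after the values of the PDGF genes had been seen. On the other side of PDGFRA, GSX2, a homeobox gene 94232 bases away, had 8 and 0 control counts, beside 210 and 75 in the overexpressing libraries, and was called higher (adjusted p = 0.00818 in edgeR). FAM20C, a secretory pathway kinase gene 75073 bases from PDGFA, was called lower (log2 fold change -1.87, adjusted p = 0.00248 in edgeR), whereas PRKAR1B, 18797 bases from PDGFA on the other side, was not (-0.28, adjusted p = 0.670). GLRB, 103937 bases from PDGFC, fell by 1.52 on the log2 scale (adjusted p = 0.00187 in edgeR). The genes beside PDGFB, RPL3 and CBX6, were not called, with log2 fold changes of 0.35 and 0.50. CBX6 missed the call by its fold change alone (adjusted p = 0.0252 in edgeR), and so did CTSO beside PDGFC (adjusted p = 0.0159 in edgeR). SLC6A7 beside PDGFRB (adjusted p = 0.0842 in edgeR), CTSO beside PDGFC (log2 fold change -0.72) and DYNC2H1 beside PDGFD (log2 fold change 0.36) were not called either, and CASP1, on the other side of PDGFD, had too few counts to be tested. The neighbours thus included higher, lower and uncalled genes.

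The rest of the PDGF pathway was read from 5 lists of genes, with 97 symbols in all, of which 93 were in the table and 89 were tested. Of these 89, 14 were called lower (15.7%) and 2 higher (2.25%), beside 10.6% and 8.61% of all genes. Their median log2 fold change was -0.21, beside -0.0016 for all 13250 genes. The count of lower genes moved with single libraries, being 10 without overexpressing replicate 1 and 28 without control replicate 8, and 8 genes were called higher without control replicate 6, where the median was -0.09. Of the 16 calls, 12 were also made without overexpressing replicate 1.

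Calls in each list are set beside those of all genes, of which 10.6% were called lower and 8.61% higher. Proteins that cut or bind the ligands outside the cell made up the first list. Of its 11 tested genes, 5 were called lower and 1 higher, and the median log2 fold change was -1.15, while 2 were called higher without control replicate 6. PLAT encodes tissue plasminogen activator, a protease known to activate PDGF-C, and had 1378 counts in control replicate 6, 1127 in control replicate 8, 506 in overexpressing replicate 1 and 526 in overexpressing replicate 3. PLAT fell by 1.74 on the log2 scale, from 76.3 ± 16.8 CPM to 22.8 ± 3.48 CPM (SD, n = 2 in each group; standard error 0.204, adjusted p = 0.00104 in edgeR). ST14, which encodes matriptase, a protease known to process PDGF-D, was counted 156 and 118 times in the controls and 53 and 71 times in the overexpressing libraries. Its log2 fold change of -1.60 had an adjusted p of 0.0162 in edgeR (standard error 0.374), and the call was lost without overexpressing replicate 1 (-1.28). PLAU, encoding urokinase, which also acts on PDGF-D, was counted 51 and 8 times in the controls and 80 and 43 times in the overexpressing libraries, and these ranges overlapped (log2 fold change 0.53, adjusted p = 0.635 in edgeR).

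The same list held matrix proteins that bind PDGF dimers. SPARC, an abundant matrix glycoprotein, fell from 746 ± 249 CPM to 162 ± 51.1 CPM (SD, n = 2 in each group; log2 fold change -2.20, adjusted p = 0.00149 in edgeR). THBS1, encoding thrombospondin, had 1539 counts in control replicate 6 and 315 in control replicate 8, against 99 and 136 in the overexpressing libraries, with a log2 fold change of -3.47 (adjusted p = 0.00997 in edgeR). As with PDGFB and PDGFRB, control replicate 6 was the higher one, and the log2 fold change of THBS1 was -1.78 without it and -4.23 without control replicate 8. DCN (decorin), named after its values were seen, had 19 counts in each control and 3 and 1 in overexpressing replicates 1 and 3, where it was at the floor, and its call was lost without overexpressing replicate 3 (log2 fold change -3.18). NRP1, a co-receptor, was the gene that rose, from 7.32 ± 2.59 CPM to 30.1 ± 11.2 CPM (SD, n = 2 in each group; log2 fold change 2.04, adjusted p = 0.00422 in edgeR). The convertase genes FURIN, PCSK5, PCSK6 and PCSK7, whose products cut the A and B precursors, were not called. Their log2 fold changes were -1.15, -0.16, -0.99 and -0.16. PCSK6 missed the call by its fold change alone (adjusted p = 0.00819 in edgeR).

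Inside the cell, the adaptors and enzymes that dock on activated receptors mostly did not pass. Of 27 tested genes, 4 were called lower (14.8%) and 0 higher, beside 10.6% and 8.61% of all genes. The median log2 fold change was -0.11. SHC1, an adaptor that leads to RAS, fell from 179 ± 4.38 CPM to 51.3 ± 8.69 CPM (SD, n = 2 in each group; log2 fold change -1.80, adjusted p = 0.000500 in edgeR), and 125 of its exon bases are shared with FLAD1 on the opposite strand. The others called lower were the adaptor genes SHB (-1.50) and NCK2 (-1.41) and the PI3-kinase catalytic gene PIK3CB (-1.45). Among the best known docking partners, GRB2, SOS1, PTPN11, PLCG1, PIK3R1 and SRC had log2 fold changes of 0.39, -0.58, -0.23, -0.01, 0.31 and -0.83. None of these was called, SOS1 and SRC by fold change alone (adjusted p = 0.0230 and 0.0177 in edgeR).

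For the RAS-ERK and PI3K-AKT kinases, with 21 genes tested, the median log2 fold change was -0.07. The genes that switch the receptors off (ubiquitin ligases, phosphatases and inhibitors) had a median of 0.08. Of 14 tested, 0 were called lower and 1 higher (7.14%), beside 10.6% and 8.61% of all genes. The gene called higher was SOCS1, a cytokine signalling inhibitor, which rose from 11.9 ± 0.0541 CPM to 28.4 ± 0.303 CPM (SD, n = 2 in each group; log2 fold change 1.25, adjusted p = 0.00247 in edgeR). The receptor and ligand genes thus lay in a pathway whose shared intracellular part had medians close to that of all genes.

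Immediate-early genes, which growth factor receptors are known to induce within minutes, gave a result that depended on single libraries. Of 16 tested genes, 4 were called lower (25.0%) and 0 higher, beside 10.6% and 8.61% of all genes. The median log2 fold change was -1.85. This list summed to 2086 CPM in control replicate 6, 295 in control replicate 8, 423 in overexpressing replicate 1 and 534 in overexpressing replicate 3, and EGR1 had the highest mean CPM of the list, which came from control replicate 6. Control replicate 6 stood apart from the other 3 libraries, and control replicate 8 was the lowest of all. EGR1 had 8151 counts in control replicate 6 and 69 in control replicate 8, and FOS had 5777 and 33. With this in view each library was left out in turn, a choice made after seeing the data. Without control replicate 6, the median was 0.23, with 3 genes called lower and 5 higher, and without control replicate 8 it was -2.71, with 13 lower and 0 higher. Without overexpressing replicate 1, 2 genes of the list were called lower.

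The genes of this list called lower were NR4A1 (log2 fold change -3.49), IER3 (-3.16), CCN2 (-2.55) and MYC (-2.23). Without control replicate 6 these were -1.37, -2.38, -1.45 and -1.48, and MYC was no longer called. Without overexpressing replicate 1, neither NR4A1 (-3.12) nor MYC (-1.86) was called, and NR4A1 was also lost under limma-voom. CCN2 was -3.43 without overexpressing replicate 3 and -3.17 without control replicate 8, and NR4A1 was then -3.95 and -4.31. PDGFB, PDGFC, PDGFRA and PDGFRB were likewise higher in CPM in control replicate 6 than in control replicate 8, while PDGFA and PDGFD were lower there, and the part of the immediate-early state of that library in these levels was not tested.

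**Figure D2:**
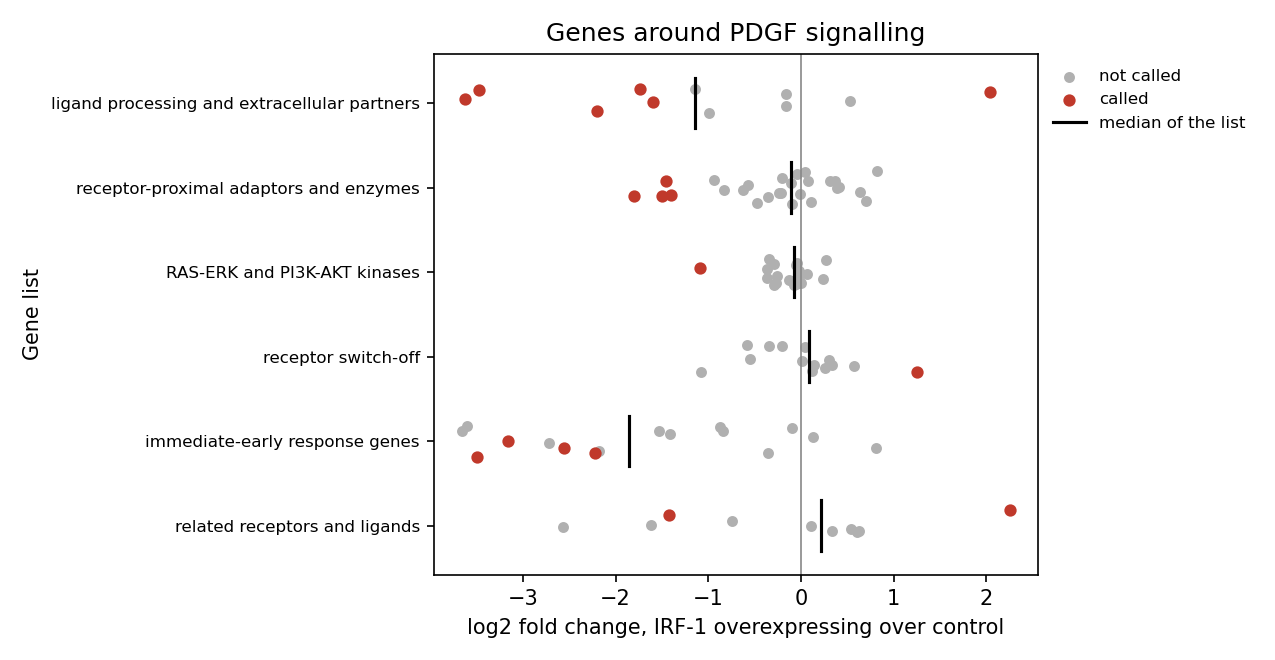
Log2 fold change of IRF-1 overexpressing over control cells for each tested gene of the 5 PDGF pathway lists and of the related receptors and ligands (n = 2 libraries per group). Points are genes, red where called, and black bars are list medians. The medians are -1.15 for ligand processing and -1.85 for immediate-early genes, and those of the other 4 lists lie between -0.11 and 0.22.

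Receptors and ligands of the same superfamily were listed for comparison. Of 10 tested genes, 1 was called lower (VEGFA, -1.42) and 1 higher (KIT), and the median log2 fold change was 0.22. Leaving out control replicate 6 made this median 0.49 and leaving out control replicate 8 made it -0.06, so its sign turned with 1 library. VEGFA was -0.72 without control replicate 6 and -1.06 without overexpressing replicate 3, and it was called in neither case, nor under limma-voom, while it was -1.90 without overexpressing replicate 1 and -1.89 without control replicate 8. In all, 2 genes of the list were called lower without overexpressing replicate 1, 1 without overexpressing replicate 3 and 0 without control replicate 6. FLT3LG was the most abundant gene of this list. KITLG, the ligand of KIT, and CSF1, the ligand of CSF1R, were not called, with log2 fold changes of 0.61 and 0.54. KITLG missed the call by its fold change alone (adjusted p = 0.0311 in edgeR). The difference between these genes and the PDGF genes was not tested.

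Because PDGF receptors mark particular cell types, marker lists were read beside them, with CPM summed over each list. For pericytes and smooth muscle, 4 of 9 tested genes were called lower and 1 higher, with a median of -1.53. Without control replicate 8 these were 8 lower of 11 tested and a median of -2.22, without control replicate 6 the median was -1.02, and 0 were called higher without control replicate 6 or overexpressing replicate 1. The sum was 258 in control replicate 6, 193 in control replicate 8, 49.2 in overexpressing replicate 1 and 64.8 in overexpressing replicate 3, and NOTCH3 was the most abundant gene (log2 fold change -2.26). ACTA2, the smooth muscle actin gene, was counted 1175 and 531 times in the controls and 38 and 68 times in the overexpressing libraries, so its order of libraries was that of PDGFRB. DES (log2 fold change -3.48) and SMTN (-1.53) were also called lower. TBX2, named after its values were seen, was called higher (3.40) and had 1 and 2 counts in the controls. KCNJ8 (0.90), MYH11 (0.66), MCAM (-0.85) and CNN1 (-1.81) were not called, MCAM by fold change alone (adjusted p = 0.0203 in edgeR). The defining pericyte genes RGS5 and CSPG4 were at no more than 3 counts in each of the 4 libraries. Of 10 tested fibroblast genes, 4 were called lower and 3 higher, with a median of -0.19, sums of 975 and 997 in the controls and 801 and 795 in the overexpressing libraries, and LOX as the most abundant. Only 1 fibroblast gene was called higher without overexpressing replicate 1, and likewise without control replicate 8. The fibroblast genes called lower were COL1A1 (log2 fold change -1.97), PDPN (-1.67), FBLN1 (-1.48) and DCN (-3.63, at the floor in the overexpressing libraries). Those called higher were PRRX1 (1.62), COL5A2 (1.08) and COL1A2 (1.08). Without control replicate 8, COL5A2 was 0.80 and COL1A2 0.78. Of the other fibroblast markers, LUM, DPT, COL5A1, COL6A3 and TCF21 were at the floor in all 4 libraries.

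For primitive endoderm, the lineage marked by PDGFRA, 3 of 7 tested genes were called lower (42.9%) and 0 higher, with a median of -0.79. Among all genes, 10.6% were called lower and 8.61% higher. The primitive endoderm genes called lower were DAB2 (log2 fold change -3.09), APOA1 (-2.55) and LAMB1 (-1.95). Of the exon bases of DAB2, 1682 are shared with C9 on the same strand. The sums were 1905 and 1839 in the controls and 1146 and 1115 in the overexpressing libraries, with LAMC1 most abundant, while FOXA2, AFP and TTR were at 0 in all 4 libraries and GATA4 had at most 4 counts. GATA6, another regulator of that lineage, had 708 and 747 counts in the controls, beside 940 and 1201 in the overexpressing libraries, and was not called (log2 fold change 0.12, adjusted p = 0.715 in edgeR). Of 7 tested pluripotency genes, 4 were called lower and 1 higher, with a median of -1.34, sums of 1484 and 1646 in the controls and 1242 and 1283 in the overexpressing libraries, and DNMT3B as the most abundant. When control replicate 6 was left out the median was -0.71, and when control replicate 8 was it was -0.63, with 8 genes tested in either case. Called lower were ESRRB (-4.19), CDH1 (-2.25), KLF5 (-1.93) and LIN28A (-1.34), and TBX3 was called higher (1.59). CDH1 lay at -1.66 when overexpressing replicate 1 was left out and at -3.21 when replicate 3 was. KLF5 kept its call only without control replicate 6 among the libraries left out and lost it under DESeq2, and TBX3 lost its call without overexpressing replicate 1 (1.25). Of the markers of the labelled cell type, NANOG had between 5 and 11 counts in a library and PRDM14 was at 0 in all 4. Of 7 tested trophectoderm genes, 4 were called lower and 1 higher, with a median of -2.68. The trophectoderm genes called lower were KRT18 (log2 fold change -5.77), KRT8 (-3.95), TFAP2C (-2.82) and TEAD4 (-2.68). Without overexpressing replicate 1, KRT18 was -4.96 and KRT8 -3.25, and without overexpressing replicate 3 they were -7.65 and -5.28. The gene called higher was TFAP2A (log2 fold change 3.72, adjusted p = 0.000206 in edgeR), and GATA2 and GATA3 were not called (-0.05 and 0.07). The list's sums were 15686 and 9622 in the controls and 319 and 1173 in the overexpressing libraries, most of it KRT8, while CDX2 and HAND1 were at 0 in all 4 libraries.

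Of 5 tested endothelial genes, 2 were called lower and 0 higher, with a median of -2.57, and 1 was called lower without overexpressing replicate 3 or without control replicate 6. The sums were 60.4 and 66.3 in the controls against 3.82 and 7.45, most of it TEK, with ERG at 0 and CDH5 at no more than 1 count, while PECAM1 had between 16 and 21 counts in each library and was not called (log2 fold change -0.35). Among all genes, 10.6% were called lower and 8.61% higher. Of 3 tested oligodendrocyte precursor genes, which mark another cell type known for PDGFRA, 0 were called lower and 2 higher, with a median of 3.37. The sums were 7.62 and 9.32 in the controls and 101 and 62.8 in the overexpressing libraries, most of it PTPRZ1, while OLIG1 and OLIG2 had 0 counts in the controls and between 3 and 5 in the overexpressing libraries. The uncalled LHFPL3 had a log2 fold change of -0.51, and SOX10 and GPR17 had at most 7 counts in a library and were not tested. The part of any of these cell types in the levels of the PDGF genes was not tested.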

How the data were processed

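RNA-seq data of 4 libraries were used, 2 per group. The authors deposited raw counts of reads per Ensembl gene, from reads mapped to Sscrofa11.1 with HISAT2 2.0.4 and counted with featureCounts 1.6.4 per the labels, and an exon length in bases (other unit) for each gene. The strand setting, annotation release and treatment of multi-mapped reads are not stated. Of 24358 genes, 14692 had a symbol, and 0 count columns were left unused. The 4 ChIP-Seq samples were not analysed here. Symbols absent from the table, such as POU5F1, SOX2 and LRP1, were not analysed here either, and values of some single list genes are left out.

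Groups were compared with edgeR 4.0.16 (R 4.3.3), using filterByExpr, TMM, the quasi-likelihood test and Benjamini-Hochberg adjustment over the 13250 genes kept. The procedure was tested on simulated data. A call needed an adjusted p below 0.05 and a log2 fold change of 1 or more in either direction. Standard errors are the absolute log2 fold change divided by the square root of F. For a single gene, the smallest two-sided p of an exact permutation test would be 0.333 here. The members and lists were chosen with earlier results of these data known. Named were IRF1, the 6 PDGF genes, the 3 genes most like each, and in each list at most 4 called genes per direction with a mean of at least 1 CPM and the most abundant marker. Uncalled genes were added by function, and genome neighbours by position, after their values were seen. Alternatives were other normalizations (RLE, upper quartile, library size), other filters, DESeq2 1.42.0, limma-voom (limma 3.58.1), no fold change minimum, counts without mitochondrial genes and the 10 highest genes, and each library left out. Figures were drawn with Python 3.11.15 and matplotlib 3.10.9.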

Additional observations from a re-analysis of the deposited data

How the results depend on the processing

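The log2 fold changes of the 6 PDGF genes were negative under all 12 alternatives, and under those that kept all 4 libraries each moved by less than the spread between replicates. With each library left out in turn, they ranged from -3.79 to -3.29 for PDGFA, -4.39 to -2.92 for PDGFB, -0.83 to -0.54 for PDGFC, -1.90 to -1.04 for PDGFD, -1.93 to -1.18 for PDGFRA and -6.32 to -4.79 for PDGFRB. Leaving out a library gave between 874 and 1548 genes called lower, between 756 and 1156 called higher, between 10 and 28 pathway genes called lower and between 2 and 8 called higher. Without a filter, which let 17823 genes be tested, 23 pathway genes were called lower. Without a fold change minimum, 1842 genes and 5 pathway genes were called higher. Over 46 called genes of the lists, 527 of 552 values under alternatives kept the call, 25 lost it and 0 changed direction. The cause of these shifts was not tested.

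No paired analysis was possible because the groups share no replicate numbers. When a library was left out, its group held 1 sample, which was assumed to vary like the other group. With 2 libraries per group, SDs are rough, and wide replicate gaps in PDGFB and PDGFRB leave the size of their difference uncertain. PDGFRA rested on 12 counts in each overexpressing library. Counts on exons shared between genes are uncertain for list genes. Each scaling moved the median of all genes by little, and RNA levels say nothing of protein.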
